A study of Caenorhabditis elegans with 3 samples.

Results

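The cytoplasmic intermediate filament genes of the nematode Caenorhabditis elegans were examined in adult hermaphrodites. Of 10 listed genes, 9 were found through probes that GEO's platform annotation assigns to 1 gene symbol. They are ifa-1, ifa-3, ifa-4, ifb-1, ifb-2, ifc-1, ifc-2, ifd-1 and ifd-2, out of 15092 genes with a value on all arrays, and each was read by 1 probe. No probe carried the symbol ifa-2. That gene is known as mua-6 today, and since no table used here ties the names together, the mua-6 probe is reported beside the members and not counted among them.

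The study hybridised 3 two-colour arrays. Each held RNA of 1 adult hermaphrodite prep (preps 1, 2 and 3, called replicates 1, 2 and 3; TP09 is the submitters' unexplained code) in channel 2, and RNA of a mixed wild-type reference in channel 1. The labels give no genotype, age or culture for the adults and no make-up for the reference, so strain, stage and tissue content can all enter a ratio. Adult RNA was in channel 2 on all 3 arrays, so a channel effect on a probe cannot be told apart from an adult difference. Whether the preps came from separate cultures is not said in the labels, so the spread among the 3 preps may be technical. The p-values and 95% intervals rest on that spread after limma moderated it towards the spread of all genes (2 residual and 5.3 prior degrees of freedom).

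Intermediate filaments are rope-like cytoplasmic polymers that give cells tensile strength. In the worm epidermis they run through the fibrous organelles, hemidesmosome-like attachments that carry the pull of body wall muscle to the cuticle. In the intestine they form the endotube, a dense sheet beneath the microvilli that protects the lumen. Worm filament proteins copolymerise: IFB-1 is the partner of the class A proteins in the epidermis and pharynx, whereas IFB-2 and the class C and D proteins belong to the intestine.

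Every value below is a log2 ratio, adult over reference, on a scale where the median probe of each array is 0, and errors are SDs over n = 3 arrays. A ratio of 1 is a doubling. The direction of the deposited ratio is not stated. It is likely adult over reference, since the adult RNA is in channel 2 and is named first in the labels. Under this reading 8 of the 9 measured oocyte markers were higher in adults and none was lower. Among all genes tested, 20.9% were higher and 23.5% lower. The median ratio of the oocyte markers was 1.74, with the yolk receptor gene rme-2 (2.30 ± 0.42) and the eggshell gene cbd-1 (2.21 ± 0.11) in the lead. With the opposite direction every higher value would be a lower one. Replicates 1 to 3 had values for 19899, 19807 and 19844 of 20000 probes. Pearson's r between arrays, taken across genes that are not independent of one another, was 0.82 (replicates 1 and 2), 0.85 (1 and 3) and 0.92 (2 and 3). Without spot intensities, which were not used here, a probe's standing over background is unknown, and precision is limited by having 3 arrays.

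The 2 measured epidermal members were higher in adults, and the 5 intestinal ones were lower or did not pass the test. Among the 5 intestinal forms, 3 were lower in adults than in the reference (ifc-1, ifb-2 and ifd-1), none was higher, and ifc-2 and ifd-2 did not pass the test. The measured epidermal forms, ifa-3 and ifb-1, were both higher. Of the 9 members, 5 (55.6%) passed limma's moderated test at an adjusted p under 0.05, against 44.4% of all genes tested. The 2 higher members compare with 20.9% of all genes called higher, and the 3 lower members with 23.5% called lower. A share this close to that of all genes is not particular to the family. The median ratio of the members was 0.00 and that of all genes tested was -0.02.

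**Figure D1:**
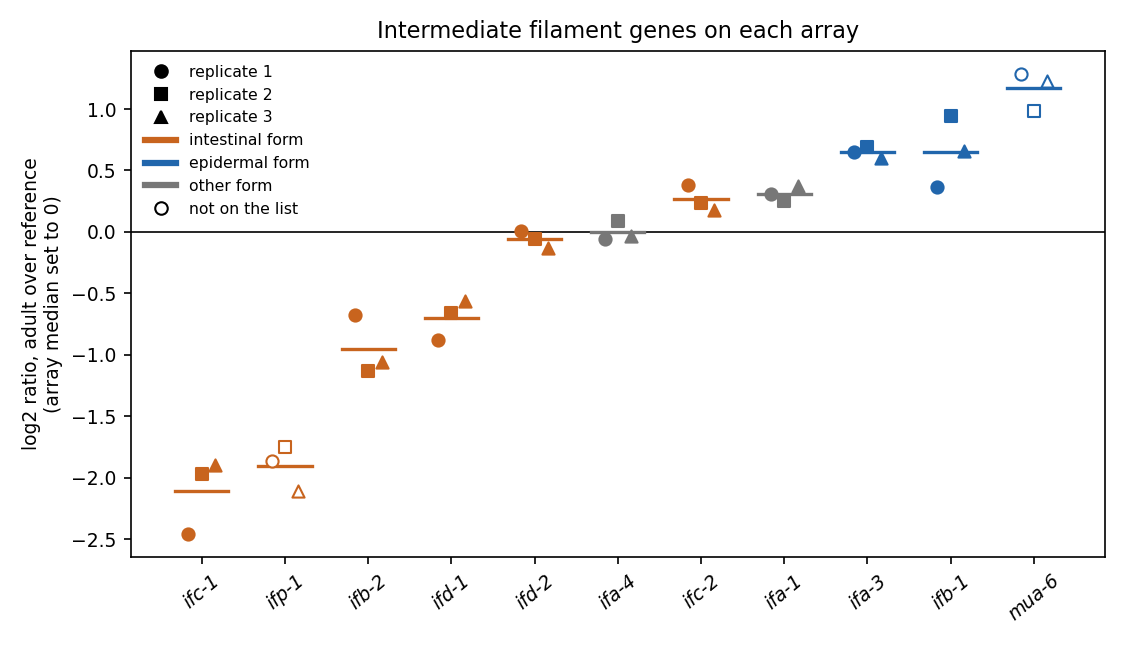
Log2 ratio of adult over reference (vertical axis) for the 9 listed filament genes and for mua-6 and ifp-1, ordered by mean. Points are single arrays, horizontal bars are means of 3 arrays, open points are genes not on the list. Means of the intestinal forms run from -2.11 (ifc-1) to 0.27 (ifc-2), and means of the epidermal forms lie at 0.65 and above. Single arrays overlap on replicate 1, with ifc-2 at 0.38 and ifb-1 at 0.36.

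The class A genes and ifb-1 include those that code for the filaments of the body surface and pharynx. The gene ifb-1 (F10C1.2), whose product is the shared partner of the class A proteins, had ratios of 0.36, 0.94 and 0.66 on replicates 1 to 3. All 3 arrays were on the higher side, with replicate 1 at less than replicates 2 and 3. The mean of 0.65 ± 0.29 put adults 1.57-fold higher (adjusted p = 0.00902, limma). That call rested on replicate 2, without which the mean was 0.51 and the adjusted p was 0.0547 (0.000560 to 1 over all alternatives, the highest from the test against a 1.5-fold change).

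The epidermal class A gene ifa-3 (F52E10.5) had ratios of 0.65, 0.69 and 0.60. The arrays agreed closely, and the SD of 0.04 was the smallest among the members. The mean of 0.65 put adults 1.56-fold higher (adjusted p = 0.00367). The means of ifa-3 and ifb-1 differed by 0.01 ± 0.27 within arrays, which is inside the spread.

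The mua-6 gene (W10G6.3), which codes for the epidermal filament protein IFA-2 and whose loss detaches muscle from the cuticle, had ratios of 1.29, 0.99 and 1.23. Its mean of 1.17 ± 0.16 put adults 2.25-fold higher (adjusted p = 0.000369), the highest of the filament genes examined. In the WBcel235 RefSeq annotation mua-6 and ifa-3 are neighbours, with 0 protein-coding genes between them. On each array ifa-3 lay under mua-6, by 0.64, 0.30 and 0.63.

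The remaining class A genes lay nearer to 0. The gene ifa-1 (F38B2.1), whose product forms filaments of the pharynx and several other epithelia, had ratios of 0.31, 0.25 and 0.37. These were all positive, but their mean of 0.31 ± 0.06 did not pass (adjusted p = 0.0750; 95% interval 0.03 to 0.59 before adjustment). With array weights, which called 8309 genes in place of 6698, it passed (adjusted p = 0.0179, in a range of 0.0179 to 1 over the alternatives). The gene ifa-4 (K05B2.3), the remaining class A member, had ratios of -0.06, 0.09 and -0.04. Its arrays differed in sign, and its 95% interval of -0.29 to 0.28 leaves room for changes of up to 1.22-fold either way.

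The intestinal forms covered the widest range. The class B gene ifb-2 (F10C1.7), the core endotube protein, had ratios of -0.68, -1.13 and -1.06. All arrays were on the lower side, replicate 1 least. The mean of -0.96 ± 0.24 put adults 1.94-fold lower (adjusted p = 0.00126).

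The class C gene ifc-1 (F37B4.2) had ratios of -2.45, -1.97 and -1.90, the lowest of all members on every array. Its mean of -2.11 ± 0.30 put adults 4.31-fold lower (adjusted p = 7.92e-05), with a 95% interval of -2.46 to -1.76. This put ifc-1 at the 1.71 percentile of all genes tested. The other class C gene, ifc-2 (M6.1), which also serves the excretory canals, had ratios of 0.38, 0.24 and 0.18. All were slightly positive, and the mean of 0.27 ± 0.11 did not pass (adjusted p = 0.123; 95% interval -0.02 to 0.55). It passed, on the higher side, when arrays were centred by runs of table rows (adjusted p = 0.0323, in a range of 0.0323 to 1 over the alternatives).

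The class D genes also parted. The gene ifd-1 (R04E5.10) had ratios of -0.88, -0.66 and -0.56, and its mean of -0.70 ± 0.16 put adults 1.62-fold lower (adjusted p = 0.00358). The gene ifd-2 (F25E2.4), whose product also lies in the endotube, had ratios of 0.01, -0.06 and -0.13. They lay at or near 0, and the mean of -0.06 ± 0.07 did not pass (adjusted p = 0.717; 95% interval -0.34 to 0.22).

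**Figure D2:**
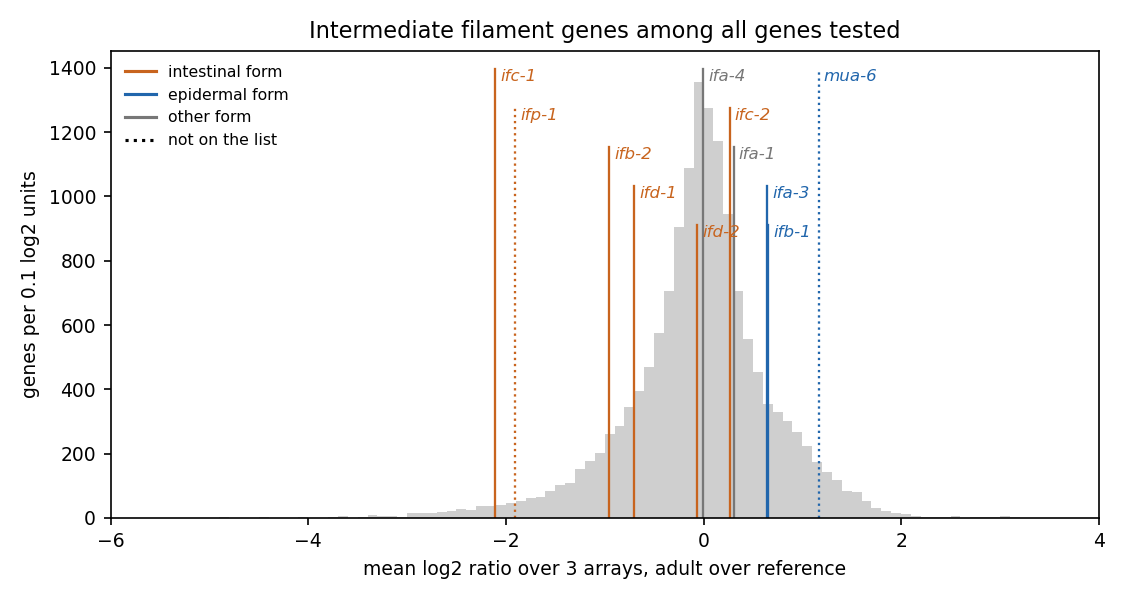
Histogram of the mean log2 ratio of adult over reference for all 15092 genes tested (grey, in bins of 0.1), with vertical lines at the filament genes; line heights carry no value. The ifc-1 line stands in the lower tail at -2.11, while ifa-4 and ifd-2 stand in the middle, at 0.00 and -0.06.

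A further intestinal filament gene, ifp-1 (C43C3.1), was not on the list but belongs to the same endotube. It had ratios of -1.86, -1.75 and -2.11. Its mean of -1.91 ± 0.18 put adults 3.75-fold lower (adjusted p = 7.28e-05). It differed from ifc-1 by 0.20 ± 0.40 within arrays, inside the spread.

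Ordered from low to high, the genes read ifc-1, ifp-1, ifb-2, ifd-1, ifd-2, ifa-4, ifc-2, ifa-1, ifa-3, ifb-1 and mua-6. Within this order ifb-2 and ifd-1 (difference 0.26 ± 0.40), ifd-2 and ifa-4 (0.06 ± 0.11), and ifc-2 and ifa-1 (0.04 ± 0.14) differed by less than the spread between arrays. The gap between ifd-1 and ifd-2 (0.64 ± 0.23) had the same sign on all 3 arrays. Of the 9 members, 4 were positive and 3 negative on all arrays, against 32.2% and 35.4% of all genes tested. The SDs ran from 0.04 (ifa-3) to 0.30 (ifc-1), with a median of 0.11 against 0.21 for all genes tested.

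The mean ratio of the 5 intestinal forms was -0.73, -0.72 and -0.69 on replicates 1 to 3, against 0.51, 0.82 and 0.63 for ifa-3 and ifb-1. The intestinal mean was the lower one on every array, although single members overlapped on replicate 1, where ifc-2 (0.38) lay above ifb-1 (0.36). The difference, intestinal minus epidermal, was -1.23, -1.53 and -1.32, with a mean of -1.36 ± 0.15, a 2.57-fold lower ratio for the intestinal set. With mua-6 among the epidermal forms it was -1.54 ± 0.05. With ifc-1 left out of the intestinal set it was -1.01 ± 0.21. No test was made, since the sets were chosen. The intestinal mean hides unequal members: the difference ifc-1 minus ifc-2 was -2.37 ± 0.41, and ifd-1 minus ifd-2 was -0.64 ± 0.23.

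Each set holds 1 class B gene, ifb-2 the intestinal and ifb-1 the epidermal one, so their difference is part of the set difference. The difference ifb-2 minus ifb-1 was -1.04, -2.07 and -1.72 on replicates 1 to 3, with a mean of -1.61 ± 0.52. It was negative on all 3 arrays and smallest in size on replicate 1. In the RefSeq annotation these genes lie close together, with 3 protein-coding genes between them. Filament genes resemble each other in sequence, and as probe sequences were not used here, shared signal between members was not tested.

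**Figure D3:**
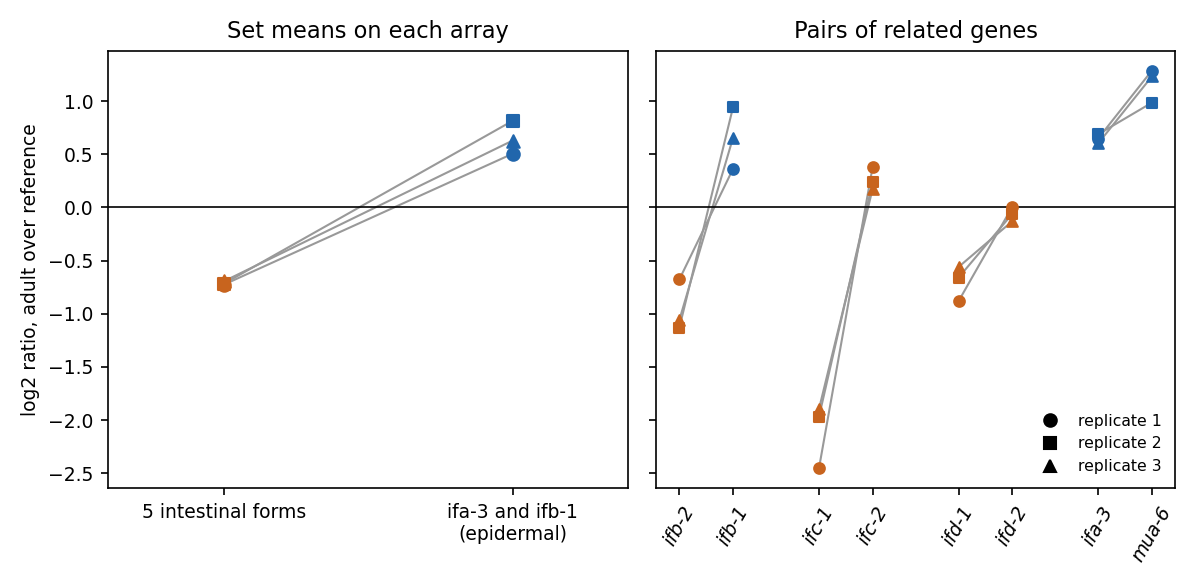
Left, mean log2 ratio of the 5 intestinal forms and of ifa-3 with ifb-1 on each array, joined by lines; right, the same scale for 4 pairs of related genes. Orange points are intestinal and blue points epidermal. The intestinal means sit between -0.73 and -0.69, and the epidermal means between 0.51 and 0.82.

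Tested against a 1.5-fold change with limma's treat, ifc-1 was the 1 member called (adjusted p = 0.000416), against 13.8% of all genes. Outside the list, ifp-1 (adjusted p = 0.000422) and mua-6 (adjusted p = 0.0129) were also called. The members ifb-2 (adjusted p = 0.0962) and ifd-1 (adjusted p = 0.751) were not called by treat. Neither were the higher members ifa-3 and ifb-1.

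Of 10 measured genes that build or anchor the intestinal terminal web, ifp-1 included, 2 were higher and 3 lower, and the median ratio was -0.02. These counts are near the 20.9% higher and 23.5% lower among all genes. The intestinal actin gene act-5 was higher at 0.61 ± 0.11 (adjusted p = 0.00561), as was erm-1, which ties actin to the apical membrane, at 0.84 ± 0.12 (adjusted p = 0.00132). The bublin gene bbln-1, which protects the filament sheet, was lower at -0.49 ± 0.11 (adjusted p = 0.0141), and so was the microvillus capping gene eps-8 at -0.40 ± 0.17 (adjusted p = 0.0394). The filament organiser ifo-1 stood at -0.02 ± 0.07 and the kinase gene sma-5, which acts on the endotube, at 0.02 ± 0.13, and neither passed. The junction genes dlg-1, let-413 and ajm-1 did not pass either, at 0.04, -0.03 and -0.42.

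Of 6 fibrous organelle genes, 2 were higher, none was lower, and the median ratio was 0.22. The share past the threshold, 33.3%, lay under the 44.4% of all genes. The cuticle-side receptor gene mup-4 was higher at 0.76 ± 0.20 (adjusted p = 0.00290). The spectraplakin gene vab-10, whose product links receptors to filaments, was higher at 0.49 ± 0.25 (adjusted p = 0.0259). Its 3 probes disagreed, with means of 0.82, 0.57 and 0.07. The receptor genes let-805 and mua-3 stood at 0.26 ± 0.14 and 0.08 ± 0.05, pat-12, which codes for a further attachment protein, at 0.18 ± 0.08, and the ankyrin repeat gene vab-19 at -0.29 ± 0.15, none of them past the threshold. The pat-12 probes also disagreed, with means of -0.04 and 0.39.

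Filament proteins also line the nucleus, where lmn-1 codes for the only worm lamin. It was higher at 0.48 ± 0.17 (adjusted p = 0.0191). Of the 8 genes of the nuclear lamina list, 5 were higher, none was lower, and the median ratio was 0.58. Among all genes 20.9% were higher and 23.5% lower, with a median of -0.02. The nuclear anchor genes sun-1 and zyg-12, which act in the germ line and early embryo, stood highest at 1.33 ± 0.17 and 1.22 ± 0.13. The lamin-binding genes emr-1 and baf-1 were higher at 0.68 ± 0.29 and 0.73 ± 0.48, while lem-2 (0.44 ± 0.38), unc-84 (0.09 ± 0.22) and anc-1 (-0.24 ± 0.48) did not pass.

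Marker genes of the tissues went both ways. Their counts stand beside 20.9% higher and 23.5% lower among all genes tested. Of 11 intestine markers, 5 were higher and 3 lower, and the median ratio was 0.39, from -0.56 (asp-1) to 1.09 (the phosphatase gene pho-1); the lipid enzyme gene spl-1 stood at 0.96 ± 0.20. The gut GATA factor genes elt-2 and elt-7 were lower, at -0.43 ± 0.09 and -0.42 ± 0.14 (adjusted p = 0.0249 and 0.0304). The remaining higher intestine markers were vha-6 (0.90 ± 0.24), mtl-2 (0.74 ± 0.29) and pept-1 (0.52 ± 0.07). Their adjusted p was 0.00162, 0.00514 and 0.00989 (limma). Of 11 epidermis markers, 2 were higher and 5 lower, and the median ratio was -0.29, from -3.63 (the collagen gene rol-6) to 2.12 (the adult collagen gene col-19). The medians of the intestine markers were 0.12, 0.50 and 0.54 on replicates 1 to 3, and those of the epidermis markers were -0.61, -0.40 and -0.17. Of 6 pharynx markers 4 were lower and none was higher (median -0.53, with the troponin gene tnc-2 at -2.65 ± 0.22 and the myosin gene myo-1 at -0.76 ± 0.32), and of 5 measured excretory canal markers 1 was lower and none was higher (median -0.22, with the canal gene exc-5 at -1.36 ± 0.31 and the homeobox gene ceh-6 at -0.31 ± 0.17). The part of tissue content in the filament ratios was not tested, and in whole-worm RNA fewer cells of a type and less RNA per cell cannot be told apart.

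**Figure D4:**
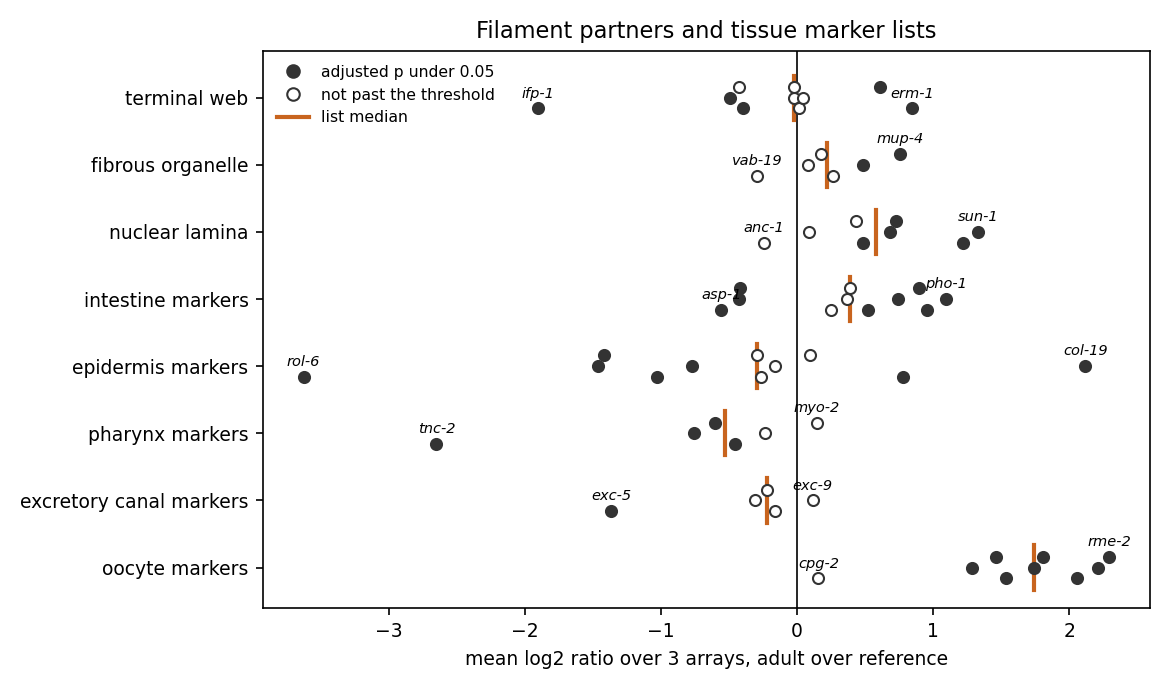
Mean log2 ratio of adult over reference for the genes of 8 lists, 1 point per gene, filled where the adjusted p was under 0.05, with the lowest and highest gene of each list named and the list median as an orange bar. Terminal web genes centre on -0.02, intestine markers on 0.39 and epidermis markers on -0.29.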

How the data were processed

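The authors deposited log2 ratios of the channels, 1 for each probe on each array; their normalization, dyes, background treatment and filters were not given in the sources used here. The log2 scale was read from the values: read as log2, 100% of those within 2 of 0 gave back ratios of 3 decimals (tolerance 0.005 thousandths), against 0.974% read as natural logs. Means and medians lay near 0. Of 20000 probes, 15655 had 1 symbol in GEO's platform annotation, 198 several and 4147 none; those without exactly 1 were left out. Symbols were matched by gene ID to WBcel235 RefSeq (15569 probes), and none changed. Arrays were centred on their medians, probes of a gene averaged, and 15092 genes tested against 0 with limma 3.58.1 in R 4.3.3 (2 residual and 5.3 prior degrees of freedom, two-sided, Benjamini-Hochberg over all genes, threshold 0.05). Spread of the reference itself is not in this test. The limma test, but not the other steps, was tried on simulated data with known changes. The members and lists were chosen with earlier results of these data known. All members and all genes of the terminal web, fibrous organelle and lamina lists are named. Of each marker list the pair with the largest absolute ratio is named. The further intestine markers asp-1, elt-2, elt-7, vha-6, mtl-2 and pept-1 were named after their values were seen. Alternatives were other normalizations, missing-value, probe and prior rules, array weights, treat, centring by 32 runs of rows, other set memberships and leaving out each replicate.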

Additional observations from a re-analysis of the deposited data

How the results depend on the processing

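The set difference kept its sign under all 15 alternatives, but some of these could not turn it. Uncentred values, the rule of at least 2 arrays and single probes left it at -1.36 by construction. Every array was negative, so leaving out 1 replicate could not turn the sign either. It was -1.11 with the measured class A members ifa-1, ifa-3 and ifa-4 and with ifb-1 as the epidermal side, mua-6 not included. With sets changed after seeing the data it was -1.54 (mua-6 added), -1.56 (ifp-1 added) and -1.01 (ifc-1 left out). Leaving out 1 replicate gave -1.43 to -1.28. With treat, whose hurdle of a 1.5-fold change is higher by construction, 2076 genes were called in place of 6698, and 1 member (0 higher, 1 lower) in place of 5. Leaving out 1 replicate gave 4954 to 7097 genes, 4 to 5 members called, 1 to 2 of them higher; ifb-1 was lost without replicate 2. Array weights (0.372 for replicate 1) raised the genes called to 8309 and added ifa-1 (adjusted p = 0.0179). Centring by 32 runs of rows gave 6855 genes and added ifc-2 (adjusted p = 0.0323). For ifa-4, which lay at 0.00, the sign turned with an adjusted p of 0.864 (runs of rows), 0.963 (quantile), 0.978 (scale), 0.891 (as deposited), 0.888 (without replicate 1) and 0.975 (without replicate 3), and kept without replicate 2 (0.873), so no direction is given. The calls of ifc-1, ifp-1 and mua-6 held under all 12 alternatives run for single genes. The cause of these changes was not tested. Each ratio already sets adult against reference RNA within 1 array. The labels give 1 group, so no further pairing of samples was possible.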
